A study of Mus musculus with 24 samples.

Results

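Cells that copy their DNA or meet a damaged strand rely on a checkpoint that senses exposed DNA and halts the cycle, and on homologous recombination, which mends a break by reading the sister chromatid. ATM and ATR are the kinases at the top of the checkpoint, BRCA1, BRCA2 and their partners act in recombination at resected ends, and the Fanconi proteins unhook DNA strands that are joined to each other. The dermal papilla (DP) is a small group of mesenchymal cells enclosed by the hair bulb, where it instructs the epithelium around it, and it is known for dividing little during the hair cycle. Many of these genes are read mostly in cells that are about to replicate, or are replicating, their DNA.

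The genes described here are 33 DNA damage checkpoint, homologous recombination and Fanconi genes, chosen by symbol out of 25755 genes in the data, and all 33 were present once in each of the 4 tables. By role they were 7 checkpoint kinases and sensors, 5 genes for break ends and their resection, 5 genes of the BRCA1 and BRCA2 complexes, 6 genes of strand exchange and its helicases, 7 genes of the Fanconi core and 3 Fanconi substrates and mismatch recognition genes.

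RNA of DP cells from 24 mice was sequenced, 3 control and 3 double mutant (dM1/2) mice at each of postnatal days P20, P24, P28 and P60. These are the first telogen (rest), early anagen and mid-anagen of the second cycle (growth), and the second telogen. The dM1/2 mice were Cor-cre/+; Hdac1 Flox/Flox; Hdac2 Flox/Flox, so that Corin-Cre, active in the DP after birth, removes the histone deacetylases Hdac1 and Hdac2 there. All controls carried Cor-cre/+ as well, with at least 1 floxed allele of Hdac1 or Hdac2. The methods allow several control genotypes, among them mice homozygous for 1 of the floxed genes. The labels do not say which control library had which genotype. The cells were sorted on a YFP reporter in 2 rounds, P20 mice were female, P24 and P28 mice male and P60 mice of both sexes, so that sex and hair-cycle stage cannot be told apart. Values are normalized reads, which are read counts divided by a size factor of the library.

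Depth was between 8171944 and 13369732 reads on genes per library in telogen and between 35469841 and 49331751 in anagen, so that a single read stood for 1.85 to 2.87 normalized reads in telogen and for 0.34 to 0.64 in anagen. Of the 33 genes, 11 had under 10 reads in some telogen library, and the lowest count in an anagen library was 6 reads, of Rad54b in P28 control 2. Hdac1 was lower in dM1/2 at P24 (log2 difference -2.01 ± 0.22 SE, adjusted p = 0.00167). It did not pass at P20 (-0.72 ± 0.22, adjusted p = 0.122), P28 (-0.58 ± 0.55, 0.454) or P60 (-0.25 ± 0.19, 0.986). At P28 the groups overlapped, since the library labelled P28 control 3 had 104.7 normalized reads of Hdac1 and the dM1/2 libraries 125.7 to 190.2. P28 control 1 was also low, at 213.6, and only P28 control 2, at 529.0, was far above dM1/2. P24 controls had 668.2 to 674.7. Hdac1 RNA is therefore a weak check of the labels at P28. Hdac2 did not pass at any age, with log2 differences from -0.01 to 0.27, and which exons the floxed alleles lose was not examined. The paper scored deletion on protein instead. By immunostaining in mid-anagen of the first cycle, it found few mutant DP cells that still held Hdac1 or Hdac2. DP markers were present in every library, with a summed level of 16410 to 66863 normalized reads in telogen and 142797 to 437503 in anagen. At P24 this sum was lower in dM1/2, 180633 to 223520 against 314806 to 396640 in controls, with no overlap. At P28 it was 142797 to 162314 in dM1/2 against 154335 to 437503, with overlap. Markers of other dermal fibroblasts summed to 97881 to 193593 at P20 and 301478 to 600498 at P60, above the DP markers there. In anagen they summed to 13124 to 150080. The lists hold different genes, and their sums do not give shares of cells. In DP markers the P28 controls were uneven, from 154335 in control 2 to 437503 in control 3, while markers of other dermal fibroblasts ran from 150080 in control 2 to 13124 in control 3. The counts below are therefore also given without these controls.

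Promoter sequences of the genes that moved together are shown first. In RefSeq windows on GRCm38.p6, from 250 bases before to 50 bases after a start site, 26 of the 33 genes had 28 windows. Rad50, Nbn, Rbbp8, Exo1, Rad54b, Xrcc2 and Fancd2 had none. An E2F type site (TTTCCCGC, TTTGGCGC, TTTCGCGC or TTTGCCGC on either strand), the element bound by factors that switch on genes for DNA synthesis, was present in 9 of the 28 windows, or 32.1%. Among all 32851 windows 2.26% held such a site, and among the 13500 windows of genes tested at P28 3.73% did. The 8 genes with a site were Bard1, Brca2, Chek2, Fancg, Mdc1, Msh6, Rad51c and Topbp1. CCAAT on either strand was found in 18 of the 28 windows (64.3%), in 37.4% of all windows and in 37.4% of those of the genes tested. TTTGAA or TTCGAA was found in 2 of 28 (7.14%), in 19.2% of all windows and in 13.5% of those of the genes tested. Median GC content was 59.8% in the windows of the 33 genes and 60.7% in those of the genes tested. These are matches of letters and were not tested as binding sites. Each of the following genes was higher in dM1/2 at both anagen ages and has its E2F type site in the 250 bases before the start, printed 5′ to 3′ on the strand of the gene with the site in capitals.
Chek2, chr5:110839733-110839982, plus strand: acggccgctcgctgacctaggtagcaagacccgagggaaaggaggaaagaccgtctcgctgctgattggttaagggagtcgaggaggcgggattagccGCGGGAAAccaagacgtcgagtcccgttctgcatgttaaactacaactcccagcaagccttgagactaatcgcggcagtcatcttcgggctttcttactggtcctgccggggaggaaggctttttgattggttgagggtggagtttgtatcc
Topbp1, chr9:103305077-103305326, plus strand: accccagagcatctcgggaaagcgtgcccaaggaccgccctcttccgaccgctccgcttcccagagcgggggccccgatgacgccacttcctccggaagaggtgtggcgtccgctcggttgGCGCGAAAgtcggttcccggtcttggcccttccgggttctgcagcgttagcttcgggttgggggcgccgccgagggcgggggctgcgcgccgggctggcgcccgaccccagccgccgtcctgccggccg
Brca2, chr5:150522371-150522620, plus strand: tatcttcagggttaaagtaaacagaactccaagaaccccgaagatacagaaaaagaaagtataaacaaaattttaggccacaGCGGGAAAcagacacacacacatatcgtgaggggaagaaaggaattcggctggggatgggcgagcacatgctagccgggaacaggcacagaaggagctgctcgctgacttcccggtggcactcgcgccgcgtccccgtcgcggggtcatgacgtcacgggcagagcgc
Bard1, chr1:71102973-71103222, minus strand: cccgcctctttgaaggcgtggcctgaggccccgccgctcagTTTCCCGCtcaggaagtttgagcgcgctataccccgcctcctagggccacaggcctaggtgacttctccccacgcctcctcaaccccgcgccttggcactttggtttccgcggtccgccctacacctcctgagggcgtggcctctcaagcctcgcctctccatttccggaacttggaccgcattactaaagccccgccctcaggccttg
Fancg, chr4:43010302-43010551, minus strand: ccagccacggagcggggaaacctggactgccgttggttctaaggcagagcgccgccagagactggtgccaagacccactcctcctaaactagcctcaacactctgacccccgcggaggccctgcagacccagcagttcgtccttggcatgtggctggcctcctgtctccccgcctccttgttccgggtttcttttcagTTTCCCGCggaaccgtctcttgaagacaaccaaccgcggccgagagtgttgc

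Not every gene of the set with such a site rose. Mdc1 has TTTCCCGC close to its start and Rad51c an E2F type site in both of its windows, and neither passed the test at P24 or P28. Of the 18 windows of genes called higher at P28, 6 held a site (33.3%), and of the 10 windows of the other genes 3 did (30%). By gene this was 6 of 17 and 2 of 9, the 2 being Mdc1 and Rad51c. The other genes also include Mre11a, Palb2 and Fanca, which were called higher at P24. With so few windows, no conclusion was drawn on the site and the rises. Brca1 and Fanci, with 2 of the largest rises, had none in their windows.

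To determine how loss of HDAC1/2 in the DP bears on these genes, dM1/2 was compared with control at each age. In anagen most of the genes were higher in dM1/2. At P24, 21 of the 33 genes rose and 1 fell, beside 14.8% of all genes tested that rose and 11.8% that fell. At P28, 21 rose and 2 fell, beside 20% and 15.6% of all genes tested. The median log2 difference of the set was 0.83 at both ages, against -0.01 at P24 and 0.00 at P28 over all genes tested. In all, 18 genes rose at both ages: Atm, Atr, Chek1, Chek2, Topbp1, Brca1, Brca2, Bard1, Brip1, Blm, Exo1, Rad54l, Rad54b, Fancd2, Fancg, Fanci, Fancm and Msh6. The share of all genes that rose at both ages was not computed, so this count has no background beside it. Groups did not overlap for 24 genes higher and 3 lower at P24 (23.8% and 21% of all genes tested) and for 26 higher and 2 lower at P28 (28% and 23.3%). As these are bulk RNAs of sorted cells, a larger share of cells that read a gene and more of its RNA per cell cannot be told apart.

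**Figure D1:**
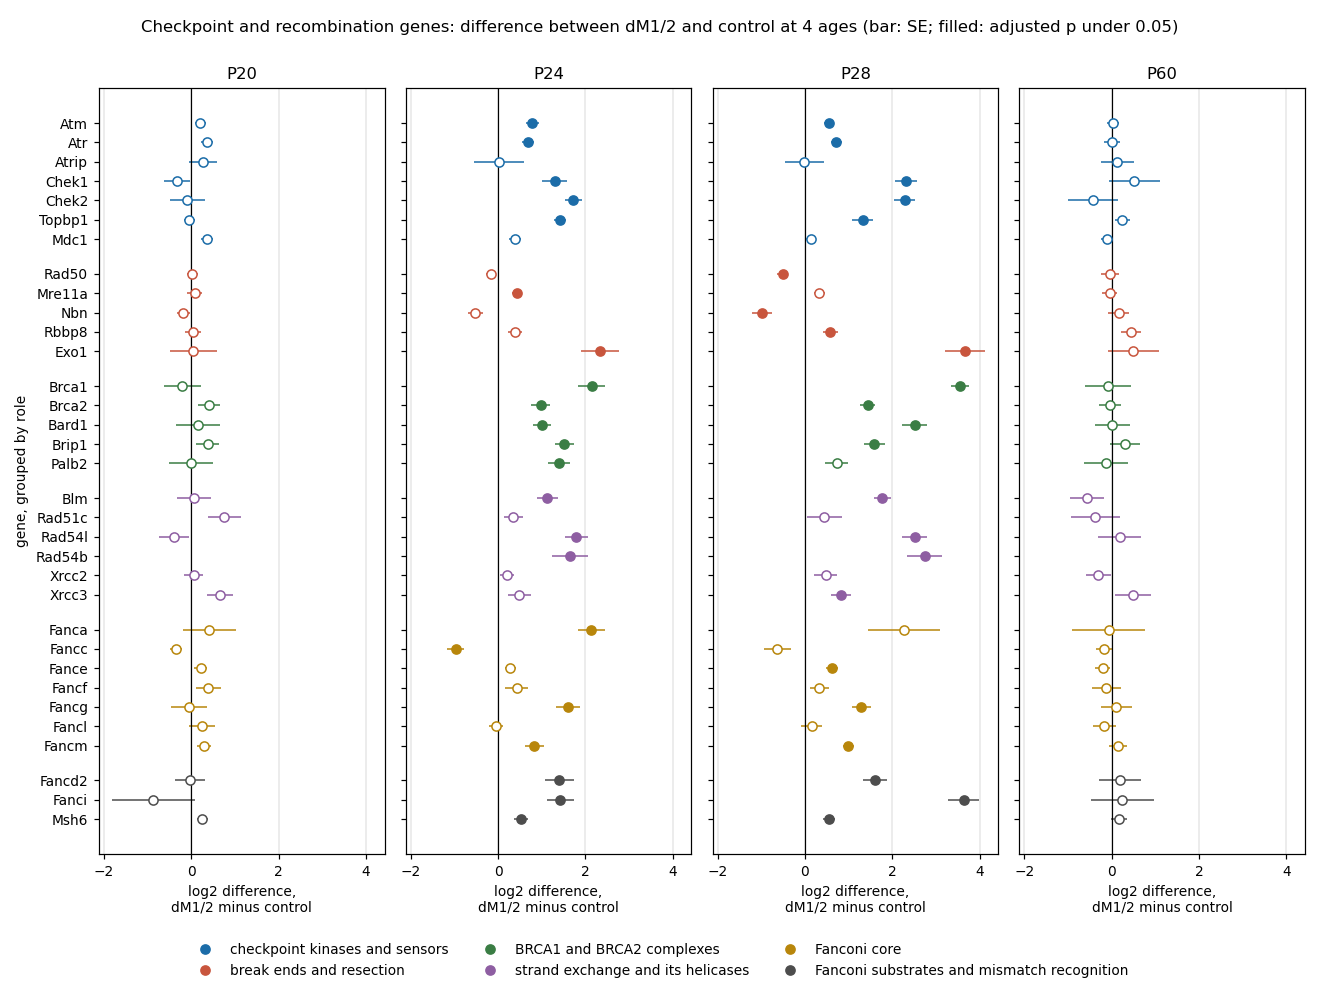
The log2 difference of each of the 33 genes (x axis, dM1/2 minus control on log2(normalized reads + 1), bar SE) is drawn at 4 ages for 3 against 3 libraries, with genes grouped by role and filled points past an adjusted p of 0.05. The points lie around 0 at P20 and P60, and at P24 and P28 most move to the right, up to 3.67 for Exo1, while Fancc, Nbn and Rad50 lie left of 0.

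In telogen none passed. At P20, 0 of the 32 genes tested were called by limma (0.433% of all genes tested were), 3 had an unadjusted p under 0.05, and edgeR and DESeq2 called 0 as well. Differences ran from -0.87 in Fanci to 0.76 in Rad51c, with the lowest adjusted p at 0.189. The median was 0.07 and that of all genes -0.01. At P60, 0 of 32 were called by limma, edgeR or DESeq2 (0% of all genes tested by limma), 0 had an unadjusted p under 0.05, and differences ran from -0.57 in Blm to 0.52 in Chek1. Rad54b, which had at most 8 reads in any telogen library, was not tested at these ages.

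The difference between the stages was tested itself, as the mean effect in anagen minus the mean effect in telogen over all 24 libraries. It was positive for 19 genes and negative for 1, Nbn, beside 16.1% and 14.1% of all genes tested. In 17 of the 33 genes all 6 anagen dM1/2 libraries were above the other 18 libraries, which held for 8.96% of all genes tested. The summed level of the 33 genes was 9533 to 12315 normalized reads in the 6 anagen dM1/2 libraries and 5785 to 8005 in the other 18. The highest of the others was P24 control 3.

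Among the checkpoint kinases and sensors, Chek2 and Topbp1 had the largest log2 differences at P24 and Chek1 and Chek2 at P28. Chek1, the kinase that ATR switches on, was at 45.7, 46.7 and 85.3 normalized reads in P24 controls and at 169, 124 and 135 in P24 dM1/2. Its P28 values were 16.5, 24.3 and 22.0 in controls and 116, 104 and 103 in dM1/2. The groups were apart at both ages, and the log2 difference was 1.30 ± 0.29 (SE, adjusted p = 0.0153) at P24 and 2.32 ± 0.25 (0.000959) at P28. The P24 call was lost without P24 control 2 (adjusted p = 0.0567) and without P24 dM1/2 1 (0.0595).

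Chek2, the kinase downstream of ATM (chr5:110839979-110874145), was nearly even among controls, at 39.1, 39.7 and 45.7 normalized reads at P24 and 40.9, 37.1 and 25.8 at P28. In dM1/2 it was at 125, 150.4 and 141 at P24 and at 158, 183 and 167 at P28. All 6 anagen dM1/2 libraries were above every control, by 1.72 ± 0.20 (adjusted p = 0.00182) and 2.28 ± 0.24 (0.0009) on the log2 scale. Topbp1, which switches on ATR at stalled forks, was at 523, 499.6 and 643 in P24 controls and at 1638, 1385 and 1422 in dM1/2. P28 controls had 429, 652 and 338 and P28 dM1/2 1143, 1034 and 1256. Its log2 difference was 1.42 ± 0.14 (adjusted p = 0.00139) and then 1.32 ± 0.24 (0.0065), with no overlap at either age.

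The apical kinases rose less. Atm, which responds to broken ends, differed by 0.79 ± 0.15 at P24 and 0.55 ± 0.11 at P28 (adjusted p = 0.00813 and 0.00902), and Atr, which responds to single-stranded DNA, by 0.69 ± 0.14 and 0.72 ± 0.13 (0.01 and 0.00656). The partners of these kinases did not pass: Atrip, the binding partner of ATR, differed by 0.03 ± 0.57 and -0.01 ± 0.45, and Mdc1, the scaffold that holds ATM at breaks, by 0.39 ± 0.14 and 0.14 ± 0.11. Without P24 control 3, Mdc1 passed at P24 (adjusted p = 0.0449). Of the exon bases of Atrip, 16% are shared with Trex1 on the same strand. How the counting treated reads there is not given in the sources used here.

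**Figure D2:**
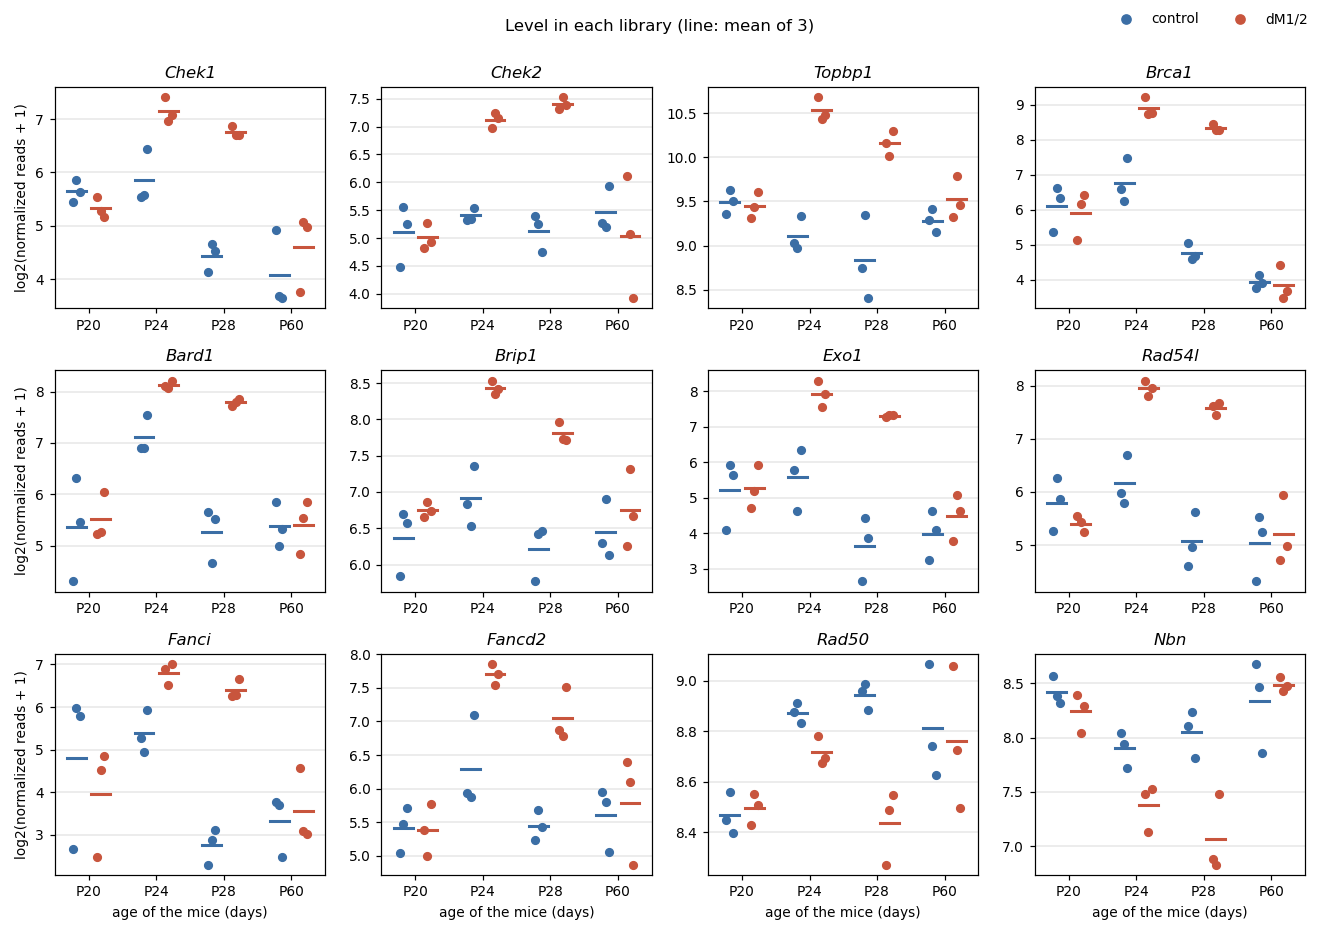
Each point is the level of a gene in 1 library (y axis, log2(normalized reads + 1)) by age, with control in blue, dM1/2 in red and the mean of 3 libraries as a line. In the 10 genes from Chek1 to Fancd2 the P24 and P28 dM1/2 points are above the controls of the same age, in Rad50 and Nbn they are below them, and at P20 and P60 the colours mix.

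Genes for break ends and resection went in both directions. Exo1, the nuclease that extends resection (chr1:175880581-175913489), had the largest log2 difference of the set at both ages, on a scale that understates low genes, while the ratio of means at P28 was wider in Fanci (14.1 against 12.1). It was at 54.2, 23.6 and 81.0 normalized reads in P24 controls and at 316, 189 and 240.4 in dM1/2. At P28 controls were at 5.22, 20.5 and 13.7 and dM1/2 at 154, 161 and 161. The 3 P28 dM1/2 libraries were thus far closer to each other than the controls were, and the log2 difference was 2.34 ± 0.43 (adjusted p = 0.00807) at P24 and 3.67 ± 0.46 (0.00158) at P28. Rbbp8, the CtIP protein that starts resection, was at 180.3, 177 and 237 in P24 controls and at 254, 257 and 261 in dM1/2, which did not pass (0.39 ± 0.16, adjusted p = 0.117). At P28 it was at 146, 129 and 160.0 against 193, 213 and 249 and passed at 0.58 ± 0.17 (0.0383). That call was lost without P28 control 1 (adjusted p = 0.105), control 2 (0.0741), dM1/2 2 (0.108) or dM1/2 3 (0.141). With all libraries kept, it was also lost with no filter (0.0547) and with the replicate number as a block (0.0833).

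The MRN complex, which holds broken ends together, is built of Mre11a, Rad50 and Nbn, and its genes did not move as one. Rad50 was at 469, 480.5 and 455 normalized reads in P24 controls and at 439, 408 and 413 in dM1/2, apart but within the error of the test (-0.16 ± 0.11, adjusted p = 0.341). At P28 it was at 497, 507 and 471 in controls and fell to 308, 358 and 373 in dM1/2 (-0.51 ± 0.13, adjusted p = 0.022). Nbn, the subunit that calls ATM to the break, was at 262, 246 and 209.6 in P24 controls and at 178, 139 and 183 in dM1/2. At P28 it was at 274, 299.7 and 224 in controls and at 117, 113 and 178 in dM1/2. Every anagen dM1/2 library was below every control of its age, and Nbn passed at P28 (-0.98 ± 0.23, adjusted p = 0.0159) but not at P24 (-0.52 ± 0.17, 0.0629). Mre11a, the nuclease, went the other way, by 0.43 ± 0.11 at P24 (adjusted p = 0.0296) and 0.33 ± 0.13 at P28 (0.0843). In the fit over all 24 libraries Mre11a passed at P28 (0.0431).

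The calls of the MRN genes rested on few libraries. Rad50 lost its call at P28 without control 1 (adjusted p = 0.0831), dM1/2 2 (0.0634) or dM1/2 3 (0.0505), and Nbn without control 1 (0.0607), dM1/2 1 (0.0552) or dM1/2 2 (0.0651). With the replicate number as a block, Rad50 (0.0724) and Nbn (0.0533) lost their P28 calls as well. At P24 Nbn passed without control 3 (adjusted p = 0.0464) and with DESeq2 (0.0242). Mre11a lost its call at P24 without any one of control 1 (0.0776), control 2 (0.0961), dM1/2 1 (0.0894), dM1/2 2 (0.0768) and dM1/2 3 (0.0653). The replicate block also lost the P24 call of Mre11a (0.112).

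The genes of the BRCA1 and BRCA2 complexes were higher in dM1/2. At P24 all 5 rose and at P28 4 of the 5, with a median log2 difference of 1.40 and 1.59. The shares of all genes tested that rose were 14.8% at P24 and 20% at P28. Brca1 (chr11:101488764-101551955) was at 94.8, 74.3 and 175 normalized reads in P24 controls and at 592, 425 and 433 in dM1/2. By P28 controls were at 32.2, 23.1 and 24.7 and dM1/2 at 347, 307 and 307, both lower than at P24. The group means were 4.21-fold apart at P24 and 12-fold apart at P28, and the log2 difference was 2.14 ± 0.32 (adjusted p = 0.00365) and 3.55 ± 0.21 (0.000203).

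Bard1, the partner that makes BRCA1 a ubiquitin ligase, was at 118, 119 and 186 in P24 controls and at 274, 268 and 296 in dM1/2. P28 libraries stood at 49.2, 24.3 and 44.7 in controls and at 209, 221 and 232 in dM1/2, so that the log2 difference was 1.01 ± 0.21 (adjusted p = 0.0114) and then 2.51 ± 0.29 (0.00122). Brip1, a helicase that binds BRCA1, was at 113, 91.9 and 164 in P24 controls and at 369.6, 324 and 339.9 in dM1/2, and at P28 at 53.5, 84.5 and 87.2 against 249, 212 and 210.0. All dM1/2 libraries were above the controls, by 1.52 ± 0.22 (adjusted p = 0.0036) and 1.59 ± 0.24 (0.00305).

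Brca2, a core gene of homologous recombination, rose by 0.98 ± 0.22 (adjusted p = 0.0168) at P24 and 1.43 ± 0.16 (0.00114) at P28. The P24 call of Brca2 was lost without control 2 (adjusted p = 0.0612), dM1/2 1 (0.0522) or dM1/2 2 (0.0605). Palb2, the bridge between BRCA1 and BRCA2, passed at P24 at 1.40 ± 0.25 (0.00716) and did not pass at P28 at 0.73 ± 0.26 (0.0689). DESeq2 called Palb2 higher at P28 (0.0487). The change of its effect between these ages was -0.68 ± 0.31 (adjusted p = 0.432).

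In strand exchange the motor proteins rose, and Rad51c and Xrcc2 did not pass. Rad54l, a DNA motor protein that acts in the search for homology, was at 62.3, 54.7 and 103 normalized reads in P24 controls and at 273, 223 and 249 in dM1/2. The P28 values were 23.5, 30.1 and 48.5 against 194, 174 and 204. The groups were apart, and the log2 difference was 1.80 ± 0.26 (adjusted p = 0.00332) and 2.51 ± 0.29 (0.00126). Rad54b, its paralog, was low, at 15.5, 12 and 35.7 in P24 controls and 53.8, 61.3 and 70.3 in dM1/2, and at P28 at 7.83, 3.84 and 7.58 against 59.7, 39 and 44.6. It rose by 1.65 ± 0.42 (0.0246) and 2.75 ± 0.40 (0.00272), with 35.8% of its exon bases shared with Fsbp on the same strand.

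Blm, the helicase that dissolves joined molecules, was at 100.2, 132 and 191 in P24 controls and at 340.2, 264 and 297 in dM1/2, and at P28 at 92.6, 83.9 and 63.0 against 272, 246 and 301. It rose by 1.13 ± 0.25 (adjusted p = 0.0147) and 1.78 ± 0.20 (0.00114). At P24 the call of Blm was lost without control 2 (0.0509), dM1/2 1 (0.0563) or dM1/2 3 (0.0522). That of Rad54b was lost at P24 without control 1 (0.0642), control 2 (0.0773), dM1/2 1 (0.0608), dM1/2 2 (0.0709) or dM1/2 3 (0.0851). The Rad54b call was also lost at P24 in the fit over all 24 libraries (0.207).

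Xrcc3, Rad51c and Xrcc2 encode related proteins that act in recombination. Xrcc3 passed at P28 alone, at 0.83 ± 0.24 (adjusted p = 0.0328), after 0.49 ± 0.26 at P24. Its call was lost without P28 control 1 (0.106), dM1/2 1 (0.0921), dM1/2 2 (0.0743) or dM1/2 3 (0.11). With all libraries kept, it was also lost in the fit over all 24 libraries (0.0583), with no filter (0.0514) and with the replicate number as a block (0.0891). Rad51c differed by 0.35 ± 0.22 and 0.44 ± 0.40 and Xrcc2 by 0.21 ± 0.17 and 0.48 ± 0.26, and neither passed. Without P28 control 3, however, both passed at P28, Rad51c at 0.87 (adjusted p = 0.0475) and Xrcc2 at 0.74 (0.0233). In that control Rad51c was at 97.5 and in the others at 48.7 and 32.7.

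Fanconi core genes build the ubiquitin ligase of the pathway, and they were mixed. At P24 3 of 7 rose and 1 fell, and at P28 3 rose. Among all genes tested 14.8% rose and 11.8% fell at P24, and 20% rose and 15.6% fell at P28. Fanca was at 65.8, 43.2 and 104 normalized reads in P24 controls and at 313, 262 and 319 in dM1/2, a rise of 2.14 ± 0.31 (adjusted p = 0.00338). At P28 controls were at 20.4, 209 and 24.3 and dM1/2 at 223, 232 and 242. All dM1/2 libraries were above, but control 2 was close to them, and the difference of 2.26 ± 0.82 did not pass (0.0727). Without control 2 it was 3.32 (adjusted p = 0.000242), and in the fit over all 24 libraries Fanca passed at P28 (0.0251).

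Fancg, a scaffold of the core, was at 67.7, 40.2 and 36.9 in P24 controls and at 157, 129 and 144 in dM1/2, and at P28 at 57.4, 58.9 and 79.3 against 166, 177 and 136. It rose by 1.60 ± 0.27 (adjusted p = 0.00573) and 1.29 ± 0.22 (0.00493). Fancm, the translocase that brings the core to DNA, was at 254, 251 and 385 in P24 controls and at 631, 499 and 441 in dM1/2, and at P28 at 251, 228 and 254 against 518, 453 and 489.8. Its rise was 0.83 ± 0.21 (0.0265) and 0.99 ± 0.13 (0.00175), and at P24 the call was lost without control 1 (0.0716), control 2 (0.0923), dM1/2 1 (0.0892) or dM1/2 2 (0.0662). The P24 call was also lost with the replicate number as a block (0.0703).

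Fancc was the gene that fell at P24. It was at 569.9, 787 and 556 normalized reads in P24 controls and at 374, 333 and 264 in dM1/2, so that no library overlapped and the log2 difference was -0.97 ± 0.19 (adjusted p = 0.0101). At P28 controls were at 645, 409.9 and 446 and dM1/2 at 430.3, 354 and 209.6. The groups then overlapped and the difference of -0.63 ± 0.30 did not pass (0.15), though it did in the fit over all 24 libraries (0.036). Fance rose at P28 by 0.62 ± 0.15 (adjusted p = 0.0169), a call lost without dM1/2 2 (0.0712) or dM1/2 3 (0.0601), after 0.28 ± 0.13 at P24. The P28 call of Fance was also lost with the replicate number as a block (0.063). Fancf (0.43 ± 0.27 and 0.33 ± 0.21) and Fancl (-0.04 ± 0.16 and 0.15 ± 0.25), the ligase subunit, did not pass at either age. Exon bases shared with a gene on the other strand were 18.6% in Fancc, 10.5% in Fanca, 15% in Fancf and 13.7% in Fancl, and the strand setting of the counting is not given in the sources used here.

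Fanci and Fancd2 form the pair that the core marks with ubiquitin. Fanci (chr7:79391929-79450264) was at 37.9, 29.6 and 59.9 normalized reads in P24 controls and at 117, 91.4 and 129 in dM1/2, a rise of 1.43 ± 0.30 (adjusted p = 0.0133). At P28 it had dropped to 3.91, 6.40 and 7.58 in controls, or 9 to 20 reads, while dM1/2 was at 75.1, 76.3 and 100.4. The group means were 14.1-fold apart, the widest ratio of the set, with a log2 difference of 3.63 ± 0.35 (adjusted p = 0.000691). Of its exon bases, 16% overlap Polg on the other strand. At P24 its call was lost without dM1/2 3 (0.0541) and in the fit over all 24 libraries (0.157).

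Fancd2 was at 60.0, 57.7 and 135 in P24 controls and at 231, 186 and 207 in dM1/2, and at P28 at 36.5, 50.6 and 42.1 against 116, 109 and 181. It rose by 1.40 ± 0.33 (adjusted p = 0.0192) and 1.60 ± 0.27 (0.00508). The P24 call of Fancd2 was lost without control 1 (0.0524), control 2 (0.0653), dM1/2 1 (0.0666) or dM1/2 3 (0.0657). Msh6, which recognizes mispaired bases, was at 429, 472 and 585 in P24 controls and at 831, 658 and 652 in dM1/2, and at P28 at 369.7, 371 and 348 against 611, 529 and 461. Its small rise of 0.53 ± 0.16 (0.0484) and 0.55 ± 0.14 (0.0238) was lost at P24 without control 1 (0.128), control 2 (0.142), dM1/2 1 (0.154), dM1/2 2 (0.0835) or dM1/2 3 (0.0781), and at P28 without control 1 (0.0744), dM1/2 1 (0.0558) or dM1/2 2 (0.08). With all libraries kept, 4 alternatives also lost the P24 call of Msh6. Their adjusted p ran from 0.0521 (limma on log2-CPM) to 0.12 (replicate number as a block). The block also lost the P28 call of Msh6 (0.057).

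Counted over the set, 12 of the 21 rises at P24 and 17 of the 21 at P28 passed with every library of the age left out in turn. The 10 that did so at both ages were Atm, Atr, Chek2, Topbp1, Brca1, Bard1, Brip1, Exo1, Rad54l and Fancg. Of these, Bard1 lost its P24 call in the fit over all 24 libraries (adjusted p = 0.0705). With the alternative fits on all reads included, 11 rises at P24 and 17 at P28 held every time. The share of all called genes that held in the same way was not computed, so these counts have no background beside them.

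From P24 to P28, control levels of many of these genes came down. Of the 33 genes 25 were lower at P28 than at P24 in controls, 15 without overlap between the ages (14.9% of all genes tested were lower without overlap), with a median log2 change of -0.38 against -0.02 for all genes. By limma 1 passed, Fanci (-2.62 ± 0.44, adjusted p = 0.0495), and 0.738% of all genes tested fell. This call was lost without any one of the 6 libraries, and edgeR called 0 of the genes lower and DESeq2 5. Brca1 did not pass at -1.99 ± 0.37 (adjusted p = 0.0598), as did Bard1 at -1.84 ± 0.34 (0.0627). In dM1/2, 27 genes were lower at P28, 16 without overlap (11.3% of all genes tested), with a median of -0.32 against 0.01 for all genes. By limma 0 passed, with 13 at an unadjusted p under 0.05 (edgeR called 0 with TMM and 1 with DESeq2's size factors, DESeq2 6), while 0.983% of all genes tested fell. Brca1 changed by -0.58 ± 0.16 there (adjusted p = 0.103) and Fanci by -0.42 ± 0.21 (0.369).

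The growth of an effect from P24 to P28 was tested as a contrast, since both ages enter it with their own controls. Called by limma were 0 of the 33 genes (0.707% of all genes tested), with 5 at an unadjusted p under 0.05, and edgeR called 1 and DESeq2 3. Fanci had the largest difference of effects at 2.20 ± 0.45 (adjusted p = 0.055), then Bard1 at 1.50 ± 0.37 (0.0951) and Brca1 at 1.41 ± 0.40 (0.148). Leaving out P24 control 2 or P28 control 3 gave 1 call each.

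The level of a gene outside these comparisons went with the size of its rise. Per kilobase of exon, P60 controls ranged from 131 normalized reads in Nbn, 108 in Fance and 101 in Msh6 down to 1.68 in Brca1 and Fanci and 0.657 in Rad54b. Genes that were high in P60 controls tended to differ less at P28, and those that were low tended to rise more. There were exceptions both ways. Topbp1, at 55.5, was 2.42-fold higher in dM1/2 by group means, while Atrip (9.51) and Rad51c (7.91) did not pass. Across the 33 genes the P28 difference and the log2 P60 control level per kilobase had a Spearman rho of -0.78 (Pearson r = -0.80), and with P20 controls -0.68. These are descriptions across genes, which are not independent replicates, and none of the libraries enters both axes, although all 24 were normalized together. Without the division by length, rho was -0.69 for the 33 genes and -0.24 over all 14126 genes tested at P28.

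**Figure D3:**
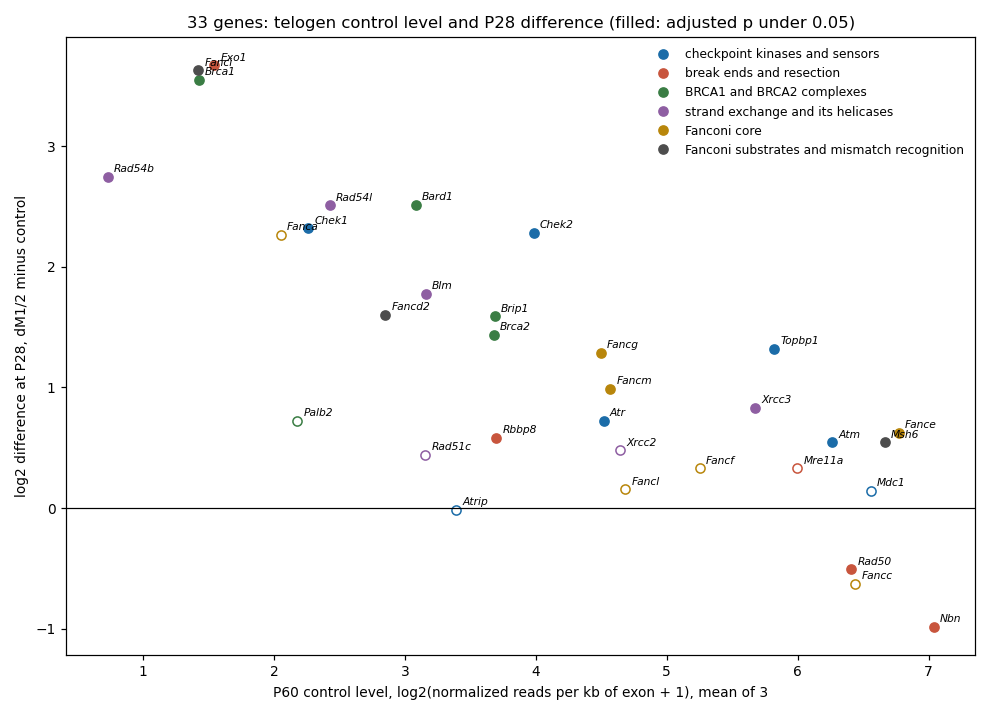
Each of the 33 genes is placed by its level in P60 controls (x axis, log2 of normalized reads per kilobase of exon plus 1, mean of 3) and its log2 difference at P28 (y axis, dM1/2 minus control), with colour for role and filled points past an adjusted p of 0.05. Exo1, Fanci and Brca1 stand at the upper left with differences of 3.67, 3.63 and 3.55, and Nbn at the lower right with -0.98.

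In the P28 dM1/2 libraries the order of levels per kilobase was led by Msh6 (123), Fance (122), Topbp1 (102) and Atm (92.3), and in P28 controls by Nbn (105), Rad50 (91.5), Msh6 (83.5) and Fance (78.8). Palb2 and Atrip were the lowest in P28 dM1/2, at 6.06 and 5.39. Over the 4 ages controls varied for 10 of 32 genes by limma's F test, beside 49% of all genes tested. The 10 were Atm, Chek1, Mdc1, Rad50, Brca1, Bard1, Xrcc2, Fance, Fanci and Fancl, and the widest range between age means was that of Brca1, 2.83 on the log2 scale.

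Other genes of these and neighbouring pathways were read beside the 33. Of 66 further checkpoint, recombination and Fanconi genes, 27 rose and 4 fell at P24 and 26 rose and 4 fell at P28, with a median log2 difference of 0.33 and 0.44. At P28 the largest rises were Cdc25c, a phosphatase that CHEK1 restrains (4.66 ± 0.38), Clspn, the adaptor that CHEK1 needs (2.89 ± 0.32), and Gen1, a nuclease that cuts joined molecules (2.64 ± 0.34). The largest falls were those of Bre, a subunit of the BRCA1-A complex (-1.24 ± 0.17), Faap20, a Fanconi core partner (-1.09 ± 0.28), and Rmi1, a partner of BLM (-0.87 ± 0.17). Genes of other repair routes were also read. Of 15 end joining genes 5 rose and 2 fell at P28 (median -0.13), of 31 base and nucleotide excision repair genes 5 rose and 4 fell (median -0.03), and of 6 mismatch repair genes 3 rose and 2 fell (median 0.32). Of all genes tested, 14.8% rose and 11.8% fell at P24, and 20% rose and 15.6% fell at P28. The excision repair genes did not exceed the P28 shares. At P20 and P60, 0 genes of these lists passed.

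DNA replication and mitosis genes were read as well. Of 33 replication genes, 32 rose at P24 and 32 at P28, with a median log2 difference of 1.22 and 1.92, and of 18 mitosis genes 16 and 18 rose, with 1.64 and 3.16. Beside them, 14.8% of all genes tested rose at P24 and 20% at P28. The summed level of the mitosis genes was 13396 to 18164 normalized reads in P24 dM1/2 and 3079 to 9569 in controls, and 10377 to 11877 against 939 to 1435 at P28. Among P24 controls, control 3 had the highest sum of mitosis genes at 9569, and it was also the highest of these controls for 24 of the 33 genes. The part of dividing cells in the differences of the 33 genes was not tested. These lists, like the 33 genes, were set up with earlier results of these data known and are not independent of them.

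**Figure D4:**
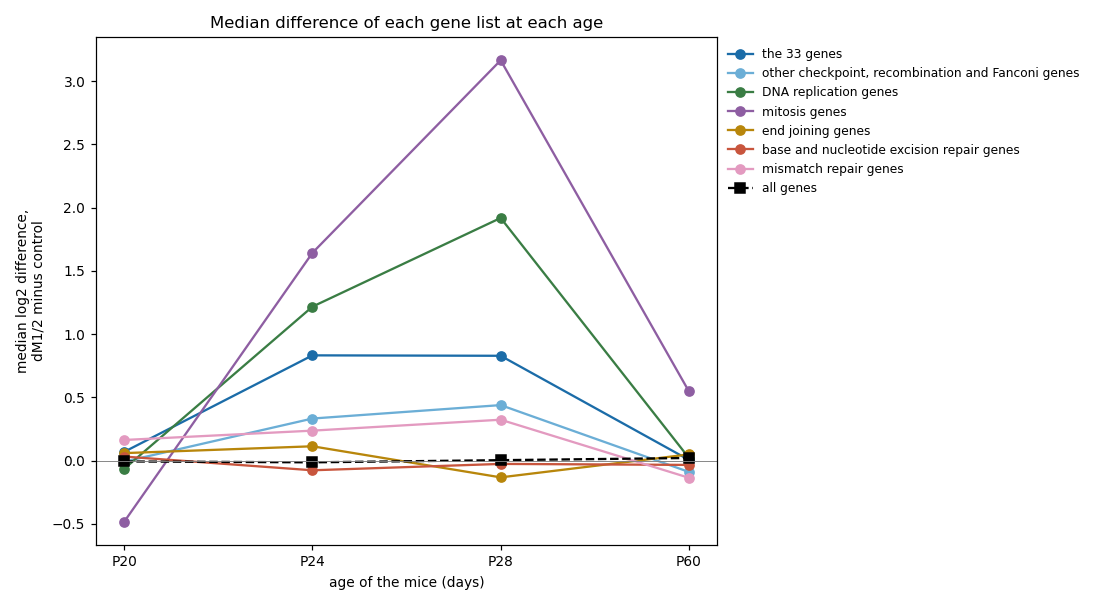
The median log2 difference between dM1/2 and control of each gene list (y axis) is drawn at the 4 ages (x axis), with all genes tested as a dashed line. The 33 genes have a median of 0.83 at P24 and P28, between those of mitosis genes (1.64 and 3.16) and those of end joining genes (0.11 and -0.13), and all genes stay near 0.

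Markers of other cells were read in the same libraries. The summed level of the 11 hair matrix and shaft markers found was higher in dM1/2, 1034 to 1355 normalized reads against 457 to 734 at P24 and 894 to 1161 against 248 to 738 at P28. Nearly all of it was Msx2, with 1000.5 to 1315.7 in P24 dM1/2. The other 10 markers summed to 33.1 to 53.1 in P24 dM1/2 and 68.7 to 126.0 in P24 controls, hence were not higher. Epidermal keratinocyte markers summed to 339 to 343 in P24 dM1/2 and 372 to 1052 in controls, and at P28 to 296 to 477 against 298 to 637. Smooth muscle and dermal sheath markers summed to 4033 to 6248 in P24 dM1/2 and 6062 to 11800 in controls, and at P28 to 3026 to 6668 against 3785 to 11519, with overlap at both ages. Of the 12 DP markers, 5 fell and 1 rose at P24, and 2 fell and 2 rose at P28. Among all genes tested 11.8% fell and 14.8% rose at P24, and 15.6% fell and 20% rose at P28. Gm26917, a noncoding gene read here as a sign of leftover ribosomal RNA, took 5.89 to 9.47% of reads in P24 dM1/2 and 1.95 to 7.13% in controls, and at P28 7.35 to 10.9% against 3.09 to 5.33%, with no overlap. The part of cell makeup and of RNA quality in the differences of the 33 genes was not tested. Without the library labelled P28 control 3, 23 of the 33 genes rose and 2 fell at P28, and without P28 control 2, 21 rose and 2 fell.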

How the data were processed

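DP cells of individual control and dM1/2 mice, 3 per genotype at 4 ages, gave 24 RNA libraries, grouped by their labels. Per the labels and the methods, the authors removed ribosomal RNA before making directional libraries, trimmed 1 end of each fragment with Trimmomatic, used TopHat2 on mm10 and HTSeq on Ensembl GRCm38.p4, and normalized with DESeq2 (its version and the strand setting of counting are not given in the sources used here). The deposited signal of a gene is its reads over a size factor, here normalized reads. The authors' fold changes and p-values were deposited beside it and not used.

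Whole reads were recovered for 100% of 618120 values (tolerance 1e-06). Replicates differed by more than counting error. The main test was limma 3.58.1 (trend, two-sided) on log2(normalized reads + 1). It took genes whose mean in the libraries of a fit was 10 normalized reads or more, and p was adjusted by Benjamini-Hochberg over all of them (threshold 0.05). A log2 difference on this scale understates the change of low genes. P-values measure the spread between these mice.

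The 33 genes, the other lists and the tests were chosen with earlier results of these data known. All 33 are named. Values per library are given for the 3 of each role with the largest absolute difference at P28 and for those that fell in anagen, and of other lists up to 3 rises and 3 falls. Exon lengths and overlaps came from GENCODE M21 (GRCm38).

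Alternatives were a pseudocount of 10, no filter, the replicate number as a block, edgeR 4.0.16 (TMM, or size factors of DESeq2), DESeq2 1.42.0, limma on TMM-scaled log2-CPM (prior count of 2), a fit over all libraries, thinning of anagen reads to 8171944 per library (10 draws), and each library left out in turn. Scripts were tested on simulated data. Counting limits cover counting error only.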

Additional observations from a re-analysis of the deposited data

Results flagged for a closer look

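The effect of dM1/2 in anagen differed from its effect in telogen, by the contrast itself over 24 libraries, for 20 of the 33 genes. Among all genes tested 16.1% were higher and 14.1% lower by this contrast. The log2 difference of effects was 0.55 for Atm, 0.53 for Atr, 1.71 for Chek1, 2.26 for Chek2 and 1.27 for Topbp1. Of the genes for break ends, Mre11a had 0.36 and Exo1 2.73, and Nbn, the one gene with a negative value, -0.74. The BRCA genes had 2.99 (Brca1), 1.03 (Brca2), 1.68 (Bard1), 1.21 (Brip1) and 1.13 (Palb2). Blm had 1.71 and Rad54l 2.26, and of the Fanconi genes Fancd2 had 1.42, Fance 0.45, Fancg 1.41, Fanci 2.84 and Fancm 0.70. With each library left out in turn 18 of the 20 passed every time. The exceptions were Mre11a (adjusted p = 0.0341), which lost its call without any one of 10 libraries, and Palb2 (0.0266), which lost it without P20 dM1/2 1 (0.0517) or P60 control 1 (0.0513). Sex goes with stage in these mice, so that both cannot be told apart here. DP markers were lower in telogen and, at P60, other dermal fibroblast markers were higher. The part of cell makeup in the contrast was not tested. The depth of the telogen libraries was lower, and with anagen reads thinned to 8171944 per library 15 to 20 of the 33 genes still rose at P24 and 18 to 21 at P28. Among all genes, a median of 3138 were then called at P24 and 4335 at P28. The contrast itself was not run on thinned reads.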

How the results depend on the processing

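Rises at P24 and P28 kept their count within 1.5 times in every alternative that kept all libraries and all reads: 18 to 21 at P24 and 17 to 22 at P28. Leaving out each library gave 13 to 23 rises at P24, 13 without P24 control 2 or P24 dM1/2 1, and 17 to 23 at P28. Anagen reads thinned to telogen depth gave 15 to 20 and 18 to 21 rises, beside medians of 3138 and 4335 calls among all genes. Falls were few and moved more. At P24 DESeq2 called 2 and leaving out libraries 1 to 2 (2 without control 3), and at P28 leaving out libraries gave 0 to 2, 0 without P28 control 1 or P28 dM1/2 2 and 1 without dM1/2 1 or dM1/2 3. The fall of Fanci from P24 to P28 in controls was lost with no filter (0 calls), with edgeR under either normalization (0 and 0), with limma on log2-CPM (0) and without any one of the 6 libraries (0 to 0), while DESeq2 called 5 falls. In dM1/2 edgeR with DESeq2 size factors called 1 fall and DESeq2 6. For the growth of effects from P24 to P28, edgeR called 1 rise with TMM and 1 with size factors, DESeq2 3, and leaving out libraries 0 to 1. The lower calls in anagen minus telogen were 2 by DESeq2 and 1 to 3 without a library (2 without P28 dM1/2 1 or P60 control 1, 3 without P60 dM1/2 3), and DESeq2 found 16 genes to vary over the ages in controls. No call reversed. In 109 cases an uncalled difference changed sign. The cause of these moves was not tested.

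Replicate numbers are shared across groups, and the labels give no further link. Correlations of same-numbered libraries were -0.40 to 0.04 at P24 and -0.23 to 0.03 at P28. They were 0.08 to 0.23 at P20, where each library went best with its own number, and 0.02 to 0.34 at P60, where not every one did. As not every pair was over 0.1 at any age, the libraries were not treated as paired. With the replicate block, 18 genes rose at P24 and 17 at P28, 0 fell at P28, 0 fell from P24 to P28 in controls, and 2 were lower in anagen minus telogen.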
